A study of Mus musculus with 18 samples.

Results

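Slc25a44 and 9 genes of branched-chain amino acid breakdown (Bcat1, Bcat2, Bckdha, Bckdhb, Dbt, Bckdk, Ppm1k, Ivd and Mccc1) were followed in mouse embryonic stem cells deprived of arginine or leucine. These 10 genes were chosen by symbol from the 55471 gene identifiers of the deposited count tables, matched through GENCODE vM21, and no measured threshold entered the rule. The list was nevertheless drawn up with results of these data known, and which values weighed in the choice is not recorded. The levels, changes and adjusted p-values of the 10 genes are therefore descriptions and no independent evidence. All 10 were found, and all 10 passed the filter on low counts in every comparison.

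RNA was sequenced from E14, an established line of mouse embryonic stem cells, either wild type (Wt) or Eif2ak4-/- (Gcn). Eif2ak4 encodes GCN2, the kinase that senses uncharged tRNA and phosphorylates the translation factor eIF2α. Cells of each genotype were starved of arginine (Arg) or of leucine (Leu) for 3 h, or kept with all amino acids (Unstarved), in 6 groups of 3 libraries. Every group, the Unstarved groups included, spent these hours in SILAC medium, a formulation prepared without chosen amino acids, with 5% dialyzed serum, glucose, GlutaMAX, lysine and leukaemia inhibitory factor, after growth on gelatin in medium with 15% serum. The labels give the knock-out as a genotype of E14 without naming the number of clones, so genotype and culture history cannot be told apart. No label states that replicates were separate cultures, and a p-value here weighs only the spread among these libraries, which may be technical.

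Leucine, isoleucine and valine enter mitochondria through SLC25A44, a carrier of the inner membrane known from brown fat. They are transaminated to branched-chain keto acids by BCAT1 in the cytosol or BCAT2 in mitochondria, a reversible step, and the keto acids are then oxidised irreversibly by the branched-chain keto acid dehydrogenase complex, which the kinase BCKDK switches off and the phosphatase PPM1K switches on. Beyond the complex each amino acid has its own enzymes, and leucine carbon passes through IVD and the biotin-dependent enzyme MCCC1 to end as ketone bodies and acetyl-CoA.

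RefSeq promoter windows, which run from 250 bases before to 50 bases after a start site, were matched for 8 of the 10 genes (11 windows, build GRCm38.p6). Slc25a44 and Dbt had none. Of these, 3 windows are shown: Mccc1, whose levels followed those of Slc25a44 most closely among the other 9 genes, Bckdha, which rose in all 4 starvation comparisons, and Ivd, which passed the test with starvation in Gcn cells and not in Wt cells. The Mccc1 window lies at chr3:36000629-36000928 (minus strand), the Bckdha window at chr7:25658712-25659011 (minus strand, its start 220 bases from the GENCODE start) and the Ivd window at chr2:118861744-118862043 (plus strand). Each is written 5′ to 3′ on the gene's strand, in lower case, and capitals mark the core bound by Krüppel-like factors, searched as CCNCNCCC on both strands.
Mccc1: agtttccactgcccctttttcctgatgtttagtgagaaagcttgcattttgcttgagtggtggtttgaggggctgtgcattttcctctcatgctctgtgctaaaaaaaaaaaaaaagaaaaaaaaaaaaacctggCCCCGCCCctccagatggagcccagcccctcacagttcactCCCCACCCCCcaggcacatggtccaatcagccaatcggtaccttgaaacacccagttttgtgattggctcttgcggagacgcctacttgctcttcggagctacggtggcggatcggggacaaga
Bckdha: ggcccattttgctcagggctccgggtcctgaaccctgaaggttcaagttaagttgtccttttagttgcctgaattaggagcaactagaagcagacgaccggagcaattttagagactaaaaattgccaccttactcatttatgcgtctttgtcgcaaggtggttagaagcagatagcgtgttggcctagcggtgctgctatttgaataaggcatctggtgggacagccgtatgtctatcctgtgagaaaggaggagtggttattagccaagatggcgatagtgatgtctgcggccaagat
Ivd: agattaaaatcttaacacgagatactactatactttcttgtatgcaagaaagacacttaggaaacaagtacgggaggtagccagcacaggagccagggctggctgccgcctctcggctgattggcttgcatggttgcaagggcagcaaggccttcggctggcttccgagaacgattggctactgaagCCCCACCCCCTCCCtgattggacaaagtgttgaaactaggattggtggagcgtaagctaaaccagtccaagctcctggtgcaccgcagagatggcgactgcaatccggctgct
The core occurred 3 times in the Mccc1 window and 3 times in the Ivd window, with matches that overlap one another, and was not found in the Bckdha window. It is a common string, present in 49.5% of all 32817 windows of the same length. It was also present in the windows nearest the GENCODE starts of Bcat1 (2 matches), Bckdhb (2) and Ppm1k (1). The E-box core CACGTG (7.15% of all windows), the C/EBP-ATF composite element TGATGNAAN (3.96%) and the forkhead element TGTTTAC (3.65%) were searched on both strands in the same way, and none of these 3 strings occurred in any of the 11 windows. The motifs were picked with the values already seen, only the Krüppel-like core matched, so no match overlapped one of another motif, and a match is a description of the letters and not a binding site.

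The libraries held 14.8 M to 38.8 M (mega) counts. Levels are counts per M counts of the library (CPM), with TMM factors, which correct for differences in composition, computed over the 18 libraries. Eif2ak4 itself lay at 27.0 to 33.4 CPM in the 9 Wt libraries and at 4.04 to 6.37 CPM in the 9 Gcn libraries. All 7 markers of naive embryonic stem cells were present, with summed levels of 5020 to 7470 CPM. The fibroblast markers summed to 14.8 to 24.5 CPM in Wt and 5.3 to 8.15 CPM in Gcn libraries. Over all libraries Col1a1 lay at 1.4 to 15.2 CPM, Thy1 at 2.49 to 5.53, Col1a2 at 0.279 to 4.47 and Col3a1 at 0.0399 to 2.07. Dcn lay at 0.329 CPM or less and Lum at 0.0469 CPM or less. Trophoblast markers summed to 3.71 to 6.41 CPM in Wt and 0.638 to 1.26 CPM in Gcn libraries, and primitive endoderm markers to 4.62 to 13 CPM over all libraries. Some of these sums also moved with starvation: trophoblast markers from 5.92 to 6.41 CPM in Wt Unstarved to 3.71 to 4.29 CPM in Wt Arg, and stem cell markers from 6280 to 6450 CPM in Gcn Unstarved to 6760 to 7470 CPM in Gcn Leu. Their part in the results on starvation was not tested. The Gcn libraries numbered 1 stood apart from the other Gcn libraries on the second principal component (19.6% of the variance, scores of -22.7 to -27.8 against 5.97 to 17.9). Gcn results on the 10 genes are therefore also given without those 3 libraries where that ends a call. Genes of the other lists were not examined without those libraries, so whether their Gcn calls hold there is not known. Wt libraries were ordered by number on their own second component (12.8% of the variance). Their scores were -24.2 to -8.38 for number 1, -2.86 to 1.95 for number 2 and 14 to 19.8 for number 3.

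A gene was called where its adjusted p, from edgeR's quasi-likelihood test over all genes, lay under 0.05. The model held the group alone, without the replicate numbers. After arginine starvation of Wt cells 5 of the 10 genes rose (Slc25a44, Dbt, Mccc1, Bcat1 and Bckdha) and Bckdk fell, against a background of 20.9% of all 16140 tested genes that rose and 20.0% that fell. After leucine starvation of Wt cells 4 rose (Slc25a44, Dbt, Bckdha and Bcat1) and Bckdk fell, where 15.5% of all genes rose and 14.1% fell. In Gcn cells 5 rose with arginine starvation (Slc25a44, Mccc1, Dbt, Bckdha and Ivd; background 14.3% of 16369 genes) and none fell (background 13.7%). In Gcn cells without leucine 3 rose (Slc25a44, Ivd and Bckdha; background 11.7%) and Bckdk fell (background 10.0%). Without the Gcn libraries numbered 1 the last comparison called 2 of the 10 genes, Slc25a44 and Bckdha, both higher. Over all genes that fit called 1808 higher and 1483 lower. The median log2 fold change of the 10 genes was 0.17, 0.12, 0.27 and 0.04 in these 4 comparisons, beside medians between -0.01 and 0.01 over all genes.

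Counted by the libraries alone, the 3 starved libraries lay wholly above the 3 unstarved ones for 6 of the 10 genes in Wt Arg (background 25.5%), 4 in Wt Leu (20.9%), 5 in Gcn Arg (20.4%) and 3 in Gcn Leu (18.7%). They lay wholly below for 1 gene in each comparison, where the background was 25.2%, 20.2%, 21.7% and 18.3%. That gene was Bcat2 in both arginine starvations and Bckdk in both leucine starvations.

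**Figure D1:**
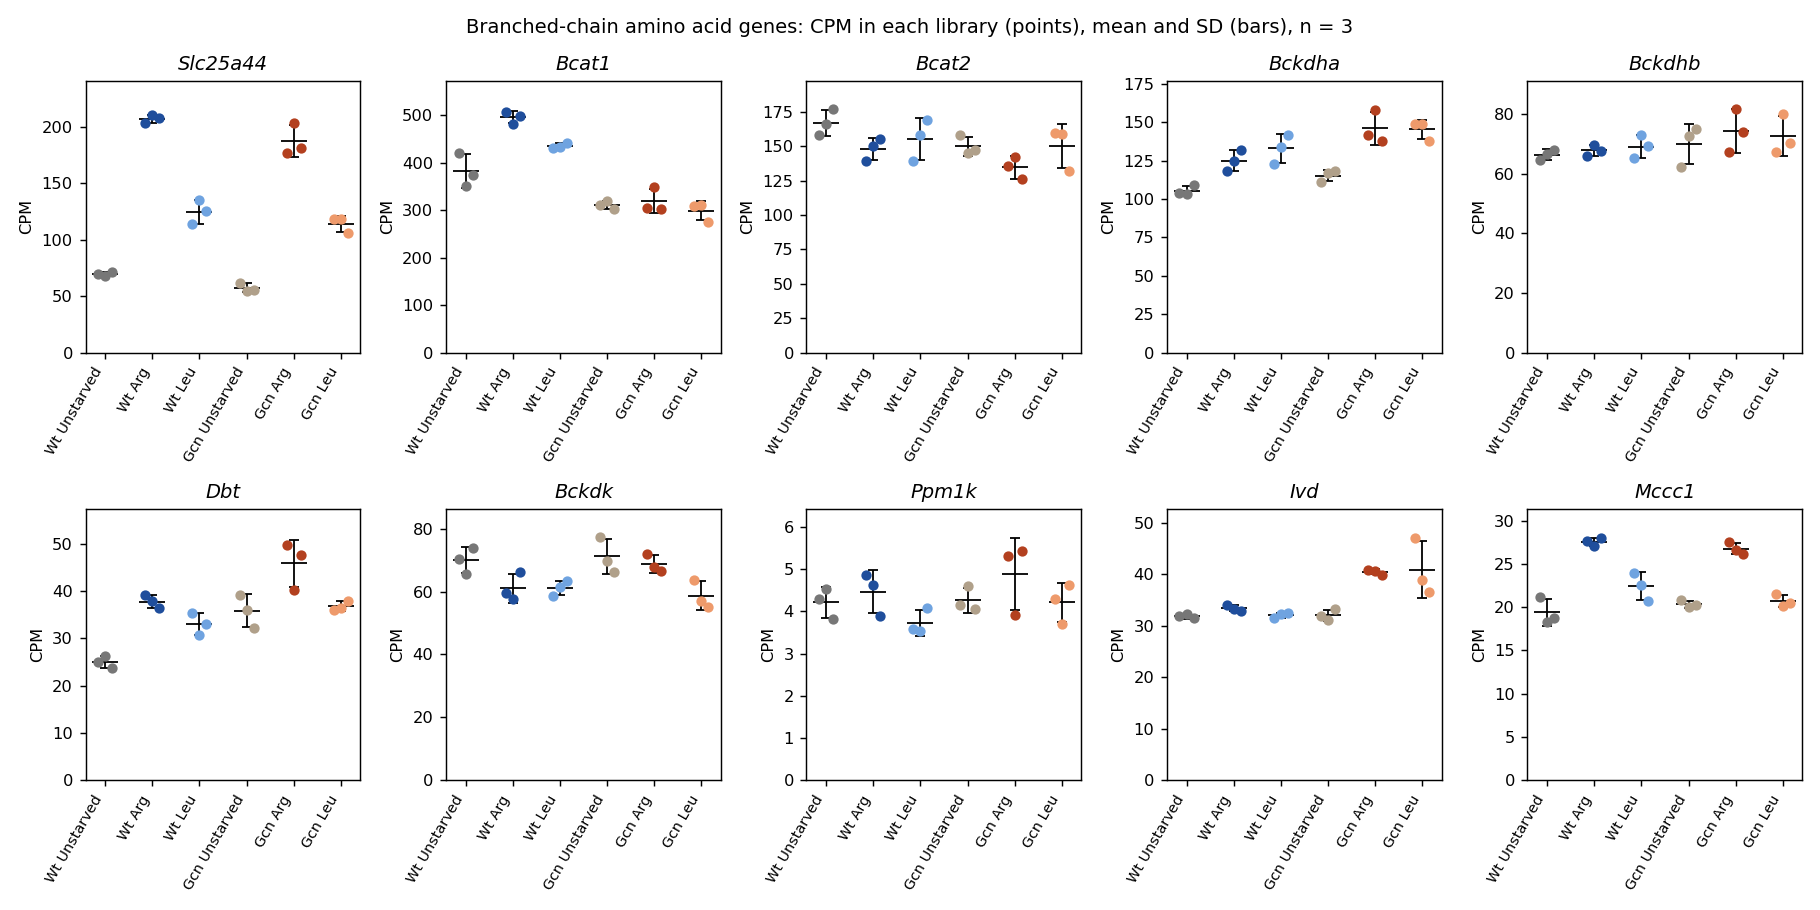
CPM of the 10 genes in each of the 18 libraries (points; vertical axes start at 0), with the mean and SD of each group of 3 as bars. Slc25a44 formed 3 separate levels in each genotype, lowest unstarved and highest without arginine, while Bckdhb stayed between 62.3 and 81.9 CPM in every library.

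**Figure D2:**
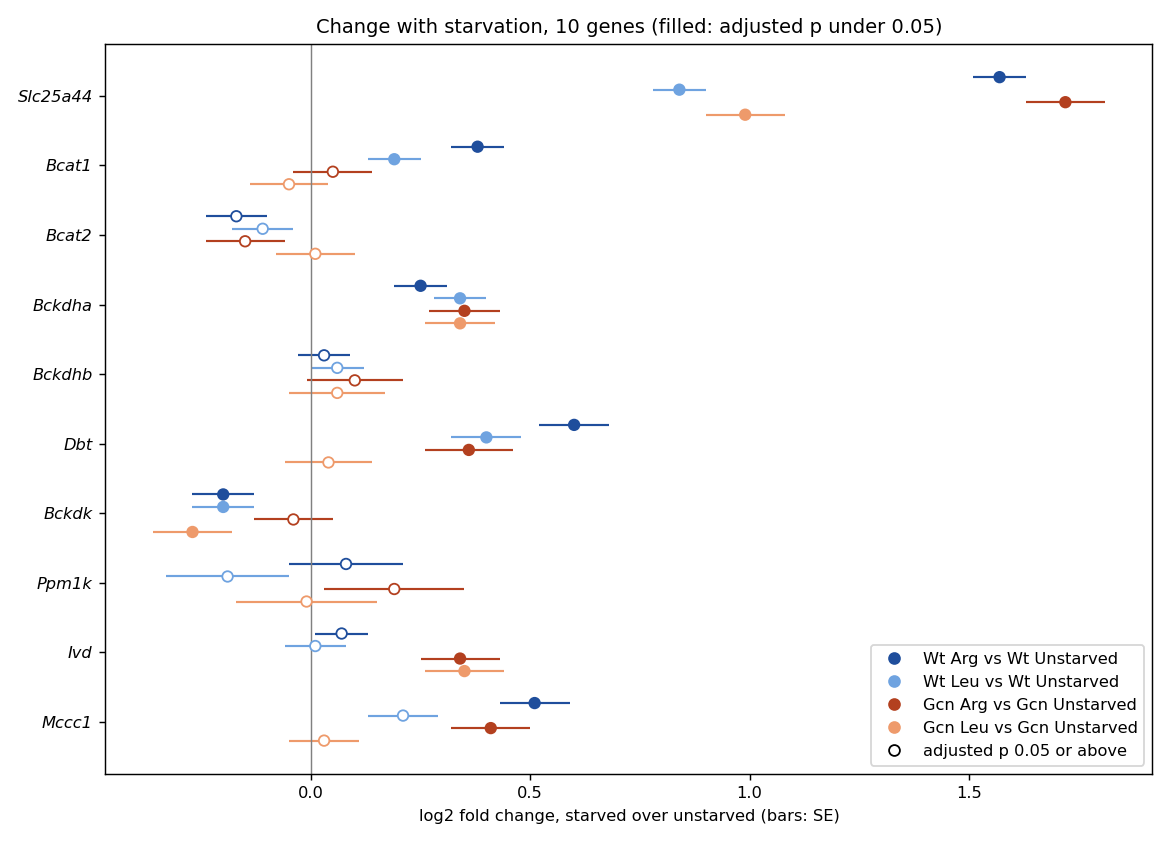
Log2 fold change of each gene in the 4 starvation comparisons, with the SE as a bar; filled points passed an adjusted p of 0.05. Slc25a44 lies to the right of the other 9 genes in all 4 comparisons, at 1.57, 0.84, 1.72 and 0.99.

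Slc25a44, the mitochondrial carrier of branched-chain amino acids (minus strand of chromosome 3, chr3:88410498-88425139), changed more than any of the other 9 genes in every starvation comparison. In Wt cells it was measured at 69.9, 67.8 and 71.7 CPM unstarved, at 203, 210 and 208 CPM without arginine, and at 114, 135 and 125 CPM without leucine. In Gcn cells the values were 61.8, 54.8 and 55.4 CPM unstarved, 177, 203 and 181 CPM without arginine, and 118, 118 and 106 CPM without leucine. In each genotype the 3 groups did not overlap, and the leucine-starved libraries lay between the unstarved and the arginine-starved ones. In bulk RNA a change in the make-up of the cultures and a change in RNA per cell cannot be told apart.

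With arginine starvation Slc25a44 rose 2.97-fold in Wt cells (log2 fold change 1.57 ± 0.06, SE, adjusted p = 1.36e-10), at place 2 of 16140 genes by p. In Gcn cells it rose 3.28-fold (1.72 ± 0.09, adjusted p = 1.74e-07), at place 3 of 16369. Ranked by log2 fold change from the highest, it stood lower, at place 152 in Wt and 126 in Gcn. Leucine starvation gave smaller rises, 1.78-fold in Wt (0.84 ± 0.06, adjusted p = 1.49e-07) and 1.99-fold in Gcn (0.99 ± 0.09, adjusted p = 1.14e-05). There Slc25a44 stood at places 36 (Wt) and 41 (Gcn) by p, and at 557 and 413 by log2 fold change. Set directly against arginine starvation, leucine starvation left Slc25a44 lower by 0.73 on the log2 scale in Wt (1.66-fold, adjusted p = 3.24e-06) and by 0.72 in Gcn (1.65-fold, adjusted p = 3.04e-04). The difference between genotypes in the response did not pass the test: it was larger in Gcn than in Wt by 0.14 ± 0.11 on the log2 scale for arginine (adjusted p = 0.587) and 0.15 ± 0.11 for leucine (adjusted p = 0.591). The calls in both starvations, and between them, held under all 12 (Wt) and 13 (Gcn) alternatives run, with log2 fold changes of 1.54 to 1.60, 0.78 to 0.89, 1.65 to 1.83 and 0.95 to 1.08. Neither difference between genotypes was called in any of 18 alternatives.

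The transaminases differed from each other. Bcat1, the cytosolic enzyme, was measured at 421, 351 and 374 CPM in unstarved Wt cells, at 506, 482 and 499 CPM without arginine, and at 430, 433 and 441 CPM without leucine. Gcn cells held 310, 319 and 303 CPM unstarved, 305, 348 and 303 CPM without arginine, and 309, 311 and 275 CPM without leucine. All 9 Wt libraries lay above all 9 Gcn libraries, and only in Wt did the starved groups lie wholly above the unstarved one. In Wt cells Bcat1 rose by 0.38 ± 0.06 without arginine (1.3-fold, adjusted p = 1.87e-04) and by 0.19 ± 0.06 without leucine (1.14-fold, adjusted p = 0.0397). The call without leucine was lost on leaving out any of 5 of the 6 libraries compared and in the fit of all 6 groups (adjusted p of 0.0697 to 0.186, log2 fold changes of 0.12 to 0.19). In Gcn cells the log2 fold changes were 0.05 (adjusted p = 0.75) and -0.05 (adjusted p = 0.729).

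The test of the difference itself did not separate the genotypes for Bcat1. Gcn minus Wt, the change was -0.34 ± 0.11 for arginine (adjusted p = 0.102) and -0.25 ± 0.11 for leucine (adjusted p = 0.31). DESeq2 did call the difference for arginine (-0.34, adjusted p = 0.0325), with 6.59% of all genes called by that tool. Bcat2, the mitochondrial enzyme, was not called against the unstarved cells as reported. It was measured at 158, 166 and 177 CPM in unstarved Wt cells, 139, 150 and 155 CPM without arginine and 139, 158 and 169 CPM without leucine, and the arginine-starved libraries lay below the unstarved ones (log2 fold change -0.17, adjusted p = 0.0641, or 0.0445 without a filter on low counts). The Gcn libraries gave 158, 145 and 147 CPM unstarved, 136, 142 and 126 CPM without arginine, and 160, 159 and 132 CPM without leucine. With the replicate numbers as a block, the arginine comparison in Gcn cells called it lower (-0.15, adjusted p = 0.0403), where 46.4% of all genes were called. Of the exonic bases of Bcat2, 15.9% also lie in an antisense gene, 0610005C13Rik, so some of its reads could belong there.

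Per kb of exon, Bcat1 stood at 0.961 ± 0.13 (SD, n = 3) of the level of Bcat2 in unstarved Wt cells, 1.41 ± 0.1 without arginine and 1.18 ± 0.11 without leucine. In Gcn cells this ratio was 0.869 ± 0.05, 0.992 ± 0.047 and 0.832 ± 0.035. The Wt arginine-starved ratios (1.34 to 1.52) lay above those of every other group. Slc25a44 per kb was 0.456 ± 0.021 of Bcat2 in unstarved Wt cells and 1.53 ± 0.065 without arginine, and 0.417 ± 0.0092 and 1.52 ± 0.085 in the same groups of Gcn cells.

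Within the dehydrogenase complex, Bckdha and Dbt rose and Bckdhb did not pass the test. Bckdha encodes the α subunit of the decarboxylase, and was the only gene besides Slc25a44 called in all 4 starvation comparisons. It was measured at 104, 103 and 109 CPM in unstarved Wt cells, 118, 125 and 132 CPM without arginine and 123, 134 and 142 CPM without leucine. The Gcn values were 111, 117 and 118 CPM unstarved, 142, 158 and 138 CPM without arginine, and 149, 149 and 138 CPM without leucine. The starved libraries lay above the unstarved ones in all 4 comparisons. The log2 fold changes were 0.25 ± 0.06 (Wt Arg, adjusted p = 0.00511), 0.34 ± 0.06 (Wt Leu, 8.36e-04), 0.35 ± 0.08 (Gcn Arg, 0.00597) and 0.34 ± 0.08 (Gcn Leu, 0.00963), or 1.19-fold to 1.28-fold. Without replicate 1 of Gcn Unstarved the last had an adjusted p of 0.0537. Bckdha shares 61.7% of its exonic bases (1171 of 1899) with B3gnt8 on the opposite strand, a gene with 4 to 18 counts in each library, and whether the counting used strand is not given in the sources used here.

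Bckdhb, the β subunit of the same decarboxylase, lay between 62.3 and 81.9 CPM in all 18 libraries, and its groups overlapped in all 4 comparisons (log2 fold changes of 0.03, 0.06, 0.10 and 0.06). Dbt encodes the transacylase core of the complex. It was measured at 25, 26.4 and 23.7 CPM in unstarved Wt cells, 39.1, 37.9 and 36.4 CPM without arginine, and 35.4, 30.7 and 33.1 CPM without leucine. Its Gcn values were 39.3, 36.1 and 32.3 CPM unstarved, 49.8, 40.3 and 47.6 CPM without arginine, and 36, 36.5 and 38 CPM without leucine. Unstarved Gcn cells thus already overlapped the starved Wt cells, and leucine-starved Gcn cells overlapped their own control.

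Dbt rose 1.51-fold in arginine-starved Wt cells (0.60 ± 0.08, adjusted p = 1.20e-05) and 1.32-fold in leucine-starved Wt cells (0.40 ± 0.08, adjusted p = 0.00103). In Gcn cells it rose 1.28-fold without arginine (0.36 ± 0.10, adjusted p = 0.0177). That call was lost on leaving out replicate 1 or 3 of Gcn Arg or replicate 2 or 3 of Gcn Unstarved, with log2 fold changes of 0.29 to 0.37. Without leucine the log2 fold change in Gcn cells was 0.04 (adjusted p = 0.811). The difference between the genotypes in response to leucine was -0.36 ± 0.13 (adjusted p = 0.195, unadjusted p = 0.0093), and in response to arginine -0.24 ± 0.13 (adjusted p = 0.356).

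Bckdk fell slightly in 3 comparisons, and Ppm1k was not called in any. Bckdk, the kinase, was measured at 70.4, 65.6 and 73.8 CPM in unstarved Wt cells, 59.4, 57.5 and 66.2 CPM without arginine and 58.7, 61.3 and 63.3 CPM without leucine. In Gcn libraries it stood at 77.3, 69.8 and 66.3 CPM unstarved, 72, 67.9 and 66.5 CPM without arginine, and 63.8, 56.9 and 55.2 CPM without leucine. Both leucine-starved groups lay wholly below their controls, and the arginine-starved groups overlapped theirs. Bckdk fell by 0.20 in Wt Arg (adjusted p = 0.0309), by 0.20 in Wt Leu (adjusted p = 0.0402) and by 0.27 in Gcn Leu (adjusted p = 0.0365), and its log2 fold change in Gcn Arg was -0.04 (adjusted p = 0.78).

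The 3 calls on Bckdk were lost under 6 of 12, 6 of 12 and 7 of 13 alternatives, with adjusted p-values up to 0.14, 0.146 and 0.165. In Wt Arg leaving out Unstarved replicate 1 or 3 or Arg replicate 1 or 2 ended the call, in Wt Leu leaving out Unstarved replicate 1 or 3 or Leu replicate 1 or 2 did, and in Gcn Leu leaving out Unstarved replicate 1 or 2 or Leu replicate 2 or 3 did. Scaling by library size alone ended all 3 calls (-0.16, -0.17 and -0.19). Ppm1k, the phosphatase, was the lowest of the 10 genes at 3.53 to 5.44 CPM (76 to 183 counts in a library), and its groups overlapped in all 4 comparisons. Per kb of exon Bckdk was 19.4 to 31.5 times the level of Ppm1k over the 18 libraries.

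Ivd and Mccc1 act in turn on leucine carbon after the complex, IVD oxidising isovaleryl-CoA and MCCC1 forming the biotin-bearing subunit of the next carboxylase. Mccc1 was measured at 18.3 to 21.2 CPM in unstarved Wt cells, 27.1 to 28 CPM without arginine and 20.7 to 24 CPM without leucine. The Gcn values were 20 to 20.8 CPM unstarved, 26.2 to 27.5 CPM without arginine and 20.1 to 21.5 CPM without leucine. In both genotypes the arginine-starved libraries lay above all others, and the leucine-starved ones overlapped the unstarved ones.

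Mccc1 rose 1.42-fold in Wt Arg (0.51 ± 0.08, adjusted p = 1.20e-04) and 1.32-fold in Gcn Arg (0.41 ± 0.09, adjusted p = 0.00301). With leucine starvation its log2 fold changes were 0.21 (Wt, adjusted p = 0.0734) and 0.03 (Gcn, adjusted p = 0.833). Mccc1 was called higher in Wt Leu with the replicate block (0.21, adjusted p = 0.0186) and without replicate 1 of Wt Unstarved (0.28, adjusted p = 0.0345). It was lower without leucine than without arginine, by 0.30 on the log2 scale in Wt (adjusted p = 0.0293) and by 0.37 in Gcn (adjusted p = 0.015). The Wt call was lost on leaving out any Arg replicate or replicate 2 or 3 of Wt Leu (adjusted p up to 0.122), and the Gcn call without replicate 2 of Gcn Leu (0.068) or without a filter on low counts (0.0717).

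Ivd was measured at 31.8, 32.3 and 31.4 CPM in unstarved Wt cells, 34, 33.3 and 32.8 CPM without arginine and 31.5, 32.2 and 32.4 CPM without leucine. In Gcn cells it lay at 31.9, 31.1 and 33.2 CPM unstarved, 40.8, 40.7 and 39.9 CPM without arginine, and 47.1, 38.8 and 36.6 CPM without leucine. All 6 starved Gcn libraries lay above every Wt library and every unstarved Gcn library. Ivd rose 1.27-fold in Gcn Arg (0.34 ± 0.09, adjusted p = 0.0141) and 1.28-fold in Gcn Leu (0.35 ± 0.09, adjusted p = 0.0152), while the Wt log2 fold changes were 0.07 and 0.01 (adjusted p = 0.423 and 0.952). The differences between genotypes were 0.27 ± 0.11 for arginine (adjusted p = 0.235) and 0.34 ± 0.11 for leucine (adjusted p = 0.18). The Gcn Arg call was lost without replicate 2 of Gcn Unstarved (0.0685). The Gcn Leu call was lost without replicate 1 or 2 of Gcn Unstarved, without replicate 1 of Gcn Leu (0.25, adjusted p = 0.0669) and without all 3 Gcn libraries numbered 1 (0.25, adjusted p = 0.095).

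Set directly against each other, leucine starvation left 2 of the 10 genes lower than arginine starvation in Wt (background 4.76% lower, 5.25% higher) and 2 lower in Gcn (3.88% lower, 4.64% higher), which were Slc25a44 and Mccc1 both times. The leucine-starved libraries lay wholly below the arginine-starved ones for 5 genes in Wt (Slc25a44, Bcat1, Dbt, Ivd and Mccc1; background 14.3%) and 4 in Gcn (Slc25a44, Dbt, Bckdk and Mccc1; 11.8%), and wholly above for none (14.7% and 12.5%). These comparisons share their starved libraries with those against the unstarved cells. With the replicate numbers as a block, 5 genes were called in Gcn cells, where 26.6% of all genes were. The added calls were Dbt (-0.31, adjusted p = 0.0098) and Bckdk (-0.23, adjusted p = 0.00511), lower without leucine, and Bcat2 (0.16, adjusted p = 0.0483), higher. In Wt cells the block called 4 genes, where 3328 of 16140 were called. It added Bcat1 (-0.19, adjusted p = 0.00738) and Dbt (-0.20, adjusted p = 0.0254), both lower without leucine. DESeq2 also called Bcat1 lower there (-0.20, adjusted p = 0.0383).

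Between the unstarved genotypes, Dbt was higher in Gcn cells (1.43-fold, 0.52 ± 0.09, adjusted p = 1.35e-04) and Bcat1 (1.23-fold lower, -0.30 ± 0.08, adjusted p = 0.00421) and Slc25a44 (1.22-fold lower, -0.28 ± 0.08, adjusted p = 0.00762) were lower. These 3 of 10 stand beside 16.6% of 16924 genes higher and 16.2% lower, and the groups did not overlap for any of the 3. Counted by libraries alone, Bckdha and Dbt lay wholly higher in Gcn (2 of 10 genes, background 22.2%) and Slc25a44, Bcat1 and Bcat2 wholly lower (3 of 10, background 22.3%). Markers of other cell types moved in the same comparison: the 6 fibroblast markers summed to 14.8 to 19.2 CPM in unstarved Wt and 6.18 to 8.01 CPM in unstarved Gcn libraries, and the 3 trophoblast markers to 5.92 to 6.41 and 1.03 to 1.26 CPM. Their part in the 3 differences was not tested. For the difference between genotypes in the response to starvation, edgeR called none of the 10 genes (background 2.30% for arginine, 0.821% for leucine). DESeq2 called 1 for arginine, Bcat1 (background 6.59%), and none for leucine (background 3.52%). At an unadjusted edgeR p under 0.05 stood 2 of the 10 for arginine and 3 for leucine. The backgrounds above do not apply there, as many more genes pass that threshold. By edgeR's unadjusted p, Ivd (0.0288, arginine) stood at place 2071 of 16924 genes and Bcat1 (0.0315, leucine) at place 1718.

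Averaged over the 18 libraries per kb of exon, the order of levels was Bckdha (67.6 ± 8.8 CPM per kb, SD over all libraries), Bcat1 (40.1 ± 8.2), Bckdhb (38.8 ± 2.9), Bcat2 (38.7 ± 3.5), Slc25a44 (35.4 ± 16), Bckdk (17.6 ± 1.7), Dbt (10.7 ± 2), Ivd (6.38 ± 0.82), Mccc1 (2.09 ± 0.31) and Ppm1k (0.713 ± 0.091). Bcat1, Bckdhb, Bcat2 and Slc25a44 differed from one another by less than the spread of Slc25a44 over the libraries. Slc25a44 moved within this order, from 19.5 ± 0.54 CPM per kb (SD, n = 3) in unstarved Wt cells, level with Bckdk at 18.9 ± 1.1, to 57.8 ± 1.1 in arginine-starved Wt cells, above Bcat1 at 53.2 ± 1.3. These levels rest on the union of annotated exons, which overstates the length of a gene whose cells use short transcripts.

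Further enzymes of leucine, isoleucine and valine breakdown were described over a list of 17 genes, all of them tested. In Wt cells 8 rose and 1 fell without arginine (20.9% and 20.0% of all genes), and 5 rose and 1 fell without leucine (15.5% and 14.1%). In Gcn cells 4 rose and 1 fell in either starvation (14.3% and 13.7% of all genes for arginine, 11.7% and 10.0% for leucine), or 9 and 1 (arginine) and 7 and 3 (leucine) with the replicate block, where 46.4% and 40.6% of all genes were called. The list's median log2 fold changes were 0.16, 0.07, 0.21 and 0.04, beside -0.01 to 0.01 over all genes. Scaling by library size alone, which moved the median of all genes by 0.11 in Gcn Arg, gave 9 higher and none lower in that comparison, where the shares of all genes were also unequal (21.1% higher and 8.53% lower). It gave 8 and none in Wt Arg (23.0% and 17.5% of all genes), 5 and 1 in Wt Leu (17.0% and 12.3%), and 6 and none in Gcn Leu (15.9% and 6.51%).

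Pcca, the biotin-bearing subunit of the propionyl-CoA carboxylase that receives isoleucine and valine carbon, separated the starvations. It lay at 10.6 to 11.1 CPM in unstarved Wt cells, 17.3 to 18.3 CPM without arginine and 10.3 to 11.9 CPM without leucine, and at 9.17 to 10.8, 13.9 to 15.5 and 7.8 to 9.2 CPM in the same groups of Gcn cells. Pcca rose in Wt Arg (0.72 ± 0.09, adjusted p = 6.84e-06) and Gcn Arg (0.53 ± 0.11, adjusted p = 0.00342), and its log2 fold changes without leucine were 0.03 and -0.29 (adjusted p = 0.82 and 0.094, the latter 0.0286 with the replicate block). Leucine starvation left it lower than arginine starvation, by 0.69 in Wt (adjusted p = 1.11e-04) and by 0.82 in Gcn (adjusted p = 7.67e-04), and no other gene of the 17 was called in either of those comparisons as reported. With the replicate block 3 of the 17 were called in Gcn cells, all lower without leucine, where 26.6% of all genes were called.

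Oxct1, which activates ketone bodies for oxidation, rose in all 4 comparisons (0.52, 0.43, 0.48 and 0.41, with adjusted p-values of 3.15e-04, 0.00254, 0.00107 and 0.00476). Mut, the methylmalonyl-CoA mutase, and Dld, the dehydrogenase subunit shared by the keto acid complexes, were called higher in both Wt comparisons and in neither Gcn comparison: Mut by 0.47 and 0.37 and Dld by 0.38 and 0.27, against 0.25 and 0.17 and 0.24 and 0.16 in Gcn cells. With the replicate block Dld was called higher in Gcn cells too (0.25, adjusted p = 0.00284, and 0.15, adjusted p = 0.0471). Aldh6a1, of valine breakdown, rose in Wt Arg (0.39), Gcn Arg (0.45) and Gcn Leu (0.30), with 0.20 in Wt Leu (adjusted p = 0.119). None of the 17 differed between genotypes in its response to either starvation in edgeR. DESeq2 called Echs1 for arginine (-0.33 in Gcn minus Wt, adjusted p = 0.0283) and Acadsb for leucine (-0.38, adjusted p just under 0.05), and both are named because of those calls.

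**Figure D3:**
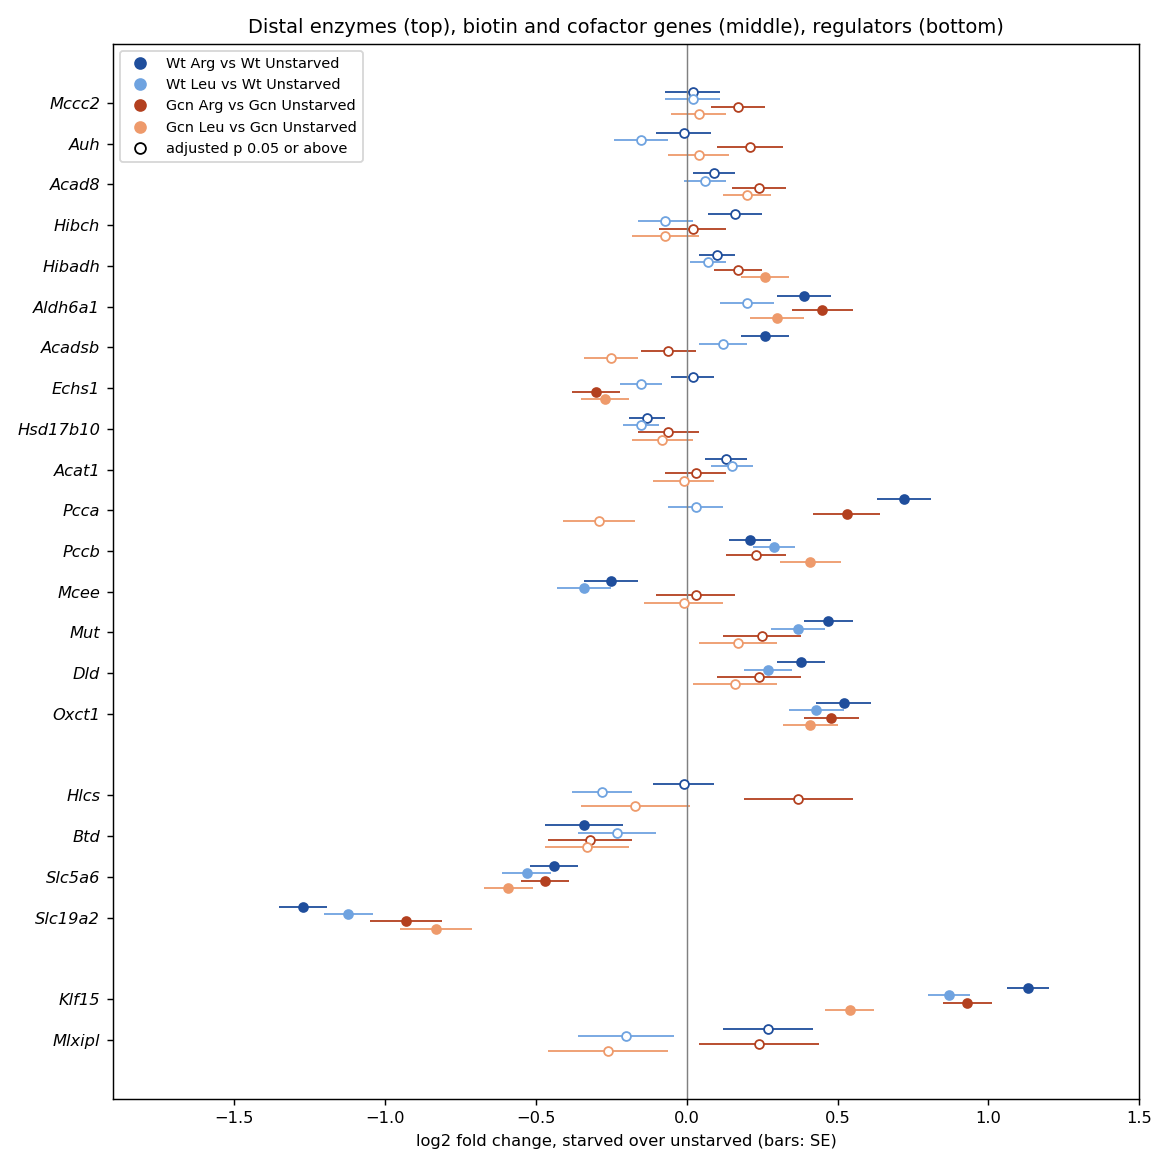
Log2 fold change, with the SE as a bar, of further enzymes of the pathway (top), genes of biotin and thiamine supply (middle) and the 2 tested regulators (bottom) in the 4 starvation comparisons; filled points passed an adjusted p of 0.05. Klf15 lies furthest right at 0.54 to 1.13, and Slc19a2 furthest left at -0.83 to -1.27.

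The genes that supply the pathway's cofactors divided. Of 6 genes for biotin and thiamine, 1 rose and 3 fell in Wt Arg, 1 rose and 2 fell in Wt Leu, and 2 rose and 2 fell in each Gcn comparison, beside the shares of all genes given for the enzymes. By DESeq2 none rose in Gcn Leu and the same number, 2, fell. Slc19a2, a plasma membrane thiamine transporter, fell from 154 to 190 CPM in unstarved Wt cells to 66 to 76 CPM without arginine and 75.8 to 85.3 CPM without leucine (log2 fold changes of -1.27 and -1.12). In Gcn cells it fell from 145 to 189 CPM to 80.8 to 87.5 and 82 to 101 CPM (-0.93 and -0.83), and the adjusted p was 2.50e-04 or less in all 4. Slc5a6, which takes up biotin and pantothenate, fell in all 4 (-0.44, -0.53, -0.47 and -0.59). Btd, which recycles biotin, fell in Wt Arg (-0.34, adjusted p = 0.0429), a call lost with DESeq2 (0.0593) and with scaling by library size alone (0.0642).

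Of 4 transcriptional regulators tied to this pathway, 2 passed the filter on low counts. Klf15, a Krüppel-like factor known to act on branched-chain amino acid genes in muscle, rose in all 4 comparisons. It lay at 35.8 to 39.3 CPM in unstarved Wt cells, 81.8 to 84.8 CPM without arginine and 66.6 to 73.9 CPM without leucine, and at 34.9 to 38.8, 68.1 to 70.6 and 48.7 to 55.4 CPM in the same groups of Gcn cells. As for Slc25a44, the groups did not overlap within a genotype and the leucine-starved libraries lay in the middle. The log2 fold changes were 1.13 ± 0.07 (adjusted p = 2.01e-09), 0.87 ± 0.07 (1.31e-07), 0.93 ± 0.08 (4.24e-06) and 0.54 ± 0.08 (4.74e-04), and Klf15 was lower without leucine than without arginine in Wt (-0.26, adjusted p = 0.0152) and Gcn (-0.39, adjusted p = 0.0106). The difference between genotypes in its response to leucine was -0.34 ± 0.10 (adjusted p = 0.14, and 0.0472 by DESeq2). Mlxipl was not called in any starvation comparison as reported, and with the replicate block it was lower without leucine than without arginine in Gcn cells (-0.51, adjusted p = 0.0132). Ppara, at 2 to 12 counts in a library, and Ppargc1a, at 0 to 2 counts, were not tested.

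Among the mitochondrial carriers of the Slc25a family, the other 42 tested genes (of 46) changed in both directions. Counts of higher and lower genes were 6 and 13 in Wt Arg (20.9% and 20.0% of all genes), 5 and 14 in Wt Leu (15.5% and 14.1%), 4 and 8 in Gcn Arg (14.3% and 13.7%) and 3 and 11 in Gcn Leu (11.7% and 10.0%). With the replicate block they were 7 and 14 in Gcn Arg and 5 and 15 in Gcn Leu, where 46.4% and 40.6% of all genes were called in either direction. Scaling by library size alone gave 9 and 13 in Wt Arg (23.0% and 17.5% of all genes), 5 and 12 in Wt Leu (17.0% and 12.3%), 7 and 5 in Gcn Arg (21.1% and 8.53%) and 3 and 5 in Gcn Leu (15.9% and 6.51%). For the difference between genotypes in the response to arginine DESeq2 called Slc25a10 (0.55, adjusted p = 0.032), named for that call, and edgeR called none of the 42 with TMM scaling (0.55 and adjusted p = 0.074 for Slc25a10) and Slc25a10 alone with scaling by library size (0.64, adjusted p = 0.0324). The median log2 fold changes of the 42 were -0.14, -0.17, -0.08 and -0.15. Slc25a44 lay above the highest of them in each comparison: Slc25a40 at 0.92 in Wt Arg and 0.88 in Gcn Arg, Slc25a53 at 0.58 in Wt Leu and Slc25a48 at 0.60 in Gcn Leu. Slc25a48 was near the floor, with 9 to 16 counts in a library of Gcn Unstarved and 21 to 25 in Gcn Leu.

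**Figure D4:**
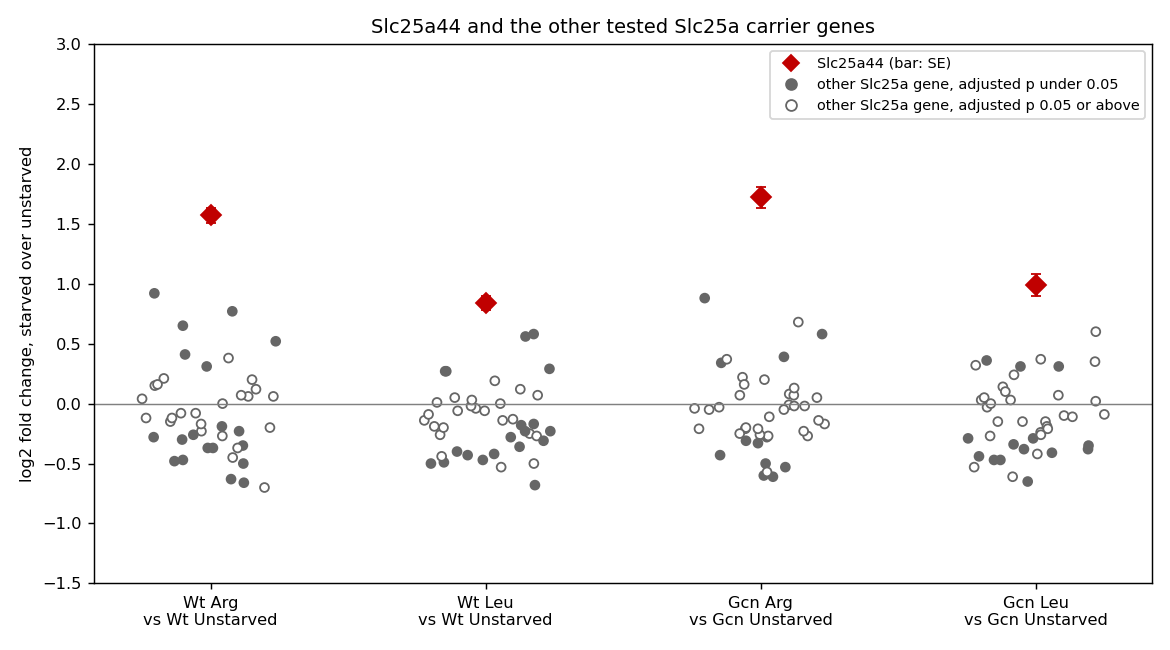
Log2 fold change of Slc25a44 (diamond, with the SE) and of the other 42 tested Slc25a genes (circles, filled where the adjusted p lay under 0.05) in the 4 starvation comparisons. Slc25a44 lies above every other carrier gene in each comparison, and the lowest carrier genes lie at -0.70, -0.68, -0.61 and -0.65. The lowest in Wt Arg, Slc25a34, and in Wt Leu, Slc25a47, had few counts (12 to 23 and 25 to 53 in a library compared).

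Slc25a40, a mitochondrial glutathione carrier, rose in all 4 comparisons (0.92, 0.56, 0.88 and 0.36) and, like Slc25a44, was lower without leucine than without arginine (-0.36 in Wt, adjusted p = 0.0184, and -0.52 in Gcn, 0.00517). Slc25a46, an outer membrane protein of the family, rose in both arginine starvations (0.65 and 0.58) and in Wt Leu (0.27), with 0.00 in Gcn Leu. Slc25a28, the mitochondrial iron importer mitoferrin-2, fell in all 4 (-0.63, -0.49, -0.50 and -0.47). Slc25a15, the mitochondrial ornithine carrier of the urea cycle, fell in both arginine starvations (-0.37 and -0.53) and in Wt Leu (-0.17), and was higher without leucine than without arginine in Wt (0.20, adjusted p = 0.0458) and Gcn (0.34, adjusted p = 0.0144). Scaling by library size alone ended the Wt Leu call (-0.15, adjusted p = 0.0804) and the Wt call between starvations (0.19, adjusted p = 0.0623), and with the replicate block Slc25a15 was called lower in Gcn Leu (-0.19, adjusted p = 0.00821). Slc25a25 (-0.50 and -0.42) fell in Wt cells, and Slc25a53 (0.77 and 0.58) rose there. In Gcn cells the replicate block called Slc25a25 lower without arginine (-0.26, adjusted p = 0.00724) and Slc25a53 higher in both starvations (0.38, adjusted p = 0.0232, and 0.32, adjusted p = 0.0425).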

How the data were processed

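Poly(A) RNA of 18 libraries was read as paired reads of 43 bases. The submitters' processing notes name GRCm38 as the build, and as tools STAR 2.7.4a, HTSeq, bcl2fastq, FastQC 0.11.7, DESeq 1.30.1, DESeq2 and R 4.0.3. For the annotation release and strandedness of counting, the setting is not given in the sources used here. The authors deposited raw whole-number counts per Ensembl gene, 1 table per genotype, and normalized tables that were not used. Of 55471 identifiers, 55230 matched GENCODE vM21, which gave symbols, positions and exon lengths.

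The quasi-likelihood F test of edgeR 4.0.16 (with limma 3.58.1 and statmod 1.5.0 in R 4.3.3) was run on the counts after filterByExpr and TMM scaling, with robust dispersions, Benjamini-Hochberg adjustment over all genes tested and calls at 0.05. Comparisons within a genotype used its 9 libraries, the others all 18. The reported fits held the group alone and no replicate block, so they left out any pairing by number. SE was taken as the absolute log2 fold change over the root of F. The procedure was tested on simulated data. The 10 genes, the lists of other genes and the tests were chosen with earlier results of these data known. All 10 genes are named, and of each list up to 6 genes with the lowest adjusted p over the 4 starvation comparisons, besides genes at the ends of a range or called by DESeq2 alone, picked after their values were seen. Of the lists, 3 genes enter the counts only and are not reported here individually.

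The labels number the replicates alike in all groups. Same-numbered Gcn libraries deviated together, with correlations of 0.18 to 0.485 over 9 pairs, against -0.383 to 0.217 over 18 differently numbered pairs. In Wt the same-numbered pairs gave lower correlations, 0.049 to 0.285. These lay wholly above those of the differently numbered Wt pairs, -0.239 to -0.004. The numbers may thus pair the libraries of both genotypes. Alternatives were DESeq2 1.42.0, other scalings, no filter, a replicate block, all 6 groups in the fit, each library left out, and the Gcn libraries numbered 1 left out. Genes of the other lists were examined only under DESeq2, scaling by library size alone and the replicate block.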

Additional observations from a re-analysis of the deposited data

How the results depend on the processing

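All calls on Slc25a44 in the 4 starvation comparisons, between starvations and between unstarved genotypes held under every alternative, and no called gene of the 10 reversed. The number of the 10 genes called moved by over 1.5 times as follows. In Wt Leu it was 3 with all 6 groups in the fit and 3 to 5 with a library left out, against 5. In Gcn Leu it was 2 without the Gcn libraries numbered 1 and 1 to 4 with a library left out (1 without replicate 1 of Gcn Unstarved), against 4. Over all genes, Gcn Leu called 3291 without the Gcn libraries numbered 1, against 3561. In Gcn Arg it was 3 to 5 with a library left out (3 without replicate 2 of Gcn Unstarved), against 5. For leucine against arginine it was 4 in Wt and 5 in Gcn with the replicate block, 1 in Gcn with no filter on low counts, and 1 to 2 (Wt) and 1 to 3 (Gcn) with a library left out, against 2 in each. For the difference between genotypes in the response to arginine DESeq2 called 1, against 0. The cause was not tested.

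Counts over all genes moved likewise. The replicate block called 7602 (Gcn Arg), 6651 (Gcn Leu), 4362 (Gcn Leu against Arg), 3328 (Wt Leu against Arg) and 227 (leucine difference between genotypes), against 4583, 3561, 1395, 1615 and 139. With all 6 groups in the fit, leucine against arginine called 916 in Wt and 2344 in Gcn. With a library left out, these 2 comparisons fell as low as 871 and 710, Gcn Leu to 2171 (without replicate 2 of Gcn Unstarved), and the differences between genotypes to 187 (arginine, 390 as reported) and 74 (leucine, with 257 the highest). For these differences DESeq2 called 777 and 391, and no filter 777 and 353. In Wt cells the block also moved the 17 enzymes from 5 higher and 1 lower to 7 and 3 in Wt Leu. The count of all genes called in Wt Leu rose too, to as many as 6555 of 16140 over the alternatives, against 4772 as reported. For Wt Leu against Arg it moved them from 1 to 4 lower. Among Wt libraries it also called Bcat2 lower in Wt Arg (-0.17, adjusted p = 0.00273), and Mlxipl higher in Wt Arg (0.28, adjusted p = 0.0276) and lower in Wt Leu against Arg (-0.46, adjusted p = 0.00386).

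Scaling by library size alone took Bckdk out of the calls in 3 comparisons. The shallowest library, Gcn Arg replicate 3, held 14.8 M counts.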

Other observations

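The 5 genes whose log2 CPM followed Slc25a44 most closely over the 18 libraries lie outside branched-chain amino acid breakdown. They were Mcoln1, a lysosomal cation channel (Pearson's r = 0.989), Slc2a4, the insulin-regulated glucose transporter (0.981), Gata2, a zinc finger transcription factor (0.975), Eya1, a transcriptional coactivator and phosphatase (0.973), and Dusp4, a phosphatase of MAP kinases (0.968). These values describe libraries that share their group, their depth and their scaling, so they carry no p, and 4 of the 5 stayed among the closest 5 without the Gcn libraries numbered 1. Unstarved, arginine-starved and leucine-starved Wt cells averaged 62.7, 195 and 142 CPM of Dusp4, and Gcn cells 48.3, 156 and 112 CPM. Mcoln1 averaged 23.1, 54.8 and 38.2 CPM in Wt and 20, 53.3 and 32.9 CPM in Gcn cells. Slc2a4 was low throughout, at 1.28, 7.91 and 3.2 CPM in Wt and 1.29, 7.39 and 3.55 CPM in Gcn cells. Each of the 5 had its highest group mean without arginine and its middle one without leucine in both genotypes. Slc25a44 has that order itself, and the 5 were picked for their likeness to it, so the shared order is no separate result.

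Of the other 9 genes of the branched-chain set, Mccc1 stood closest to Slc25a44 (r = 0.871, place 289 of 16923 genes), followed by Bckdha (0.635) and Dbt (0.580). Bckdk (-0.401) and Bcat2 (-0.391) ran the other way over the 18 libraries.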
